A study of Mus musculus with 2 samples.

Results

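The microRNA genes of the Mir15-Mir16-Mir195-Mir497 family were described in embryonic mouse heart. They are 6 genes: Mir15a, Mir16-1, Mir15b, Mir16-2, Mir195a and Mir497. All but Mir497 are among the 1973 microRNA genes listed in the deposited counts and were found by Ensembl identifier. Mir497 is not listed under its own identifier. It lies inside the listed gene Mir497b on the other strand, so the reads opposite Mir497b were taken as its counts. The samples were 2 small RNA libraries from hearts of B6NCrl mouse embryos at embryonic day 10.5, healthy and of both sexes, with no genotype or treatment group. Replicate 1 came from a pool of 69 embryos and replicate 2 from a pool of 51. The labels give this 1 group, so genes and loci were compared within each library, and the libraries with each other. A pool averages over embryos and over the cell types of the dissected tissue, so that fewer cells of a type and less RNA per cell cannot be told apart.

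MicroRNAs are cut from hairpin precursors into mature strands of about the size that a small RNA library captures. A mature strand pairs with messenger RNAs mainly through its seed, bases 2 to 8 from the 5′ end, and lowers their stability and translation. The miR-15 family is known for restraining the cell cycle and survival through targets such as cyclins, Chek1 and Bcl2. In the mouse heart miR-195 is known to rise in the ventricles around birth, when heart muscle cells leave the cell cycle. The Mir15a-Mir16-1 pair is also known as a tumour suppressor locus lost in chronic lymphocytic leukaemia.

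The mature 5p strands are shown because the family is defined by them. The capitals mark the seed. Sequences are those of RefSeq on build GRCm38.p6, where all 6 genes matched by symbol.
miR-15a-5p: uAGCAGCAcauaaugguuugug
miR-15b-5p: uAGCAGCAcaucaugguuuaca
miR-16-5p: uAGCAGCAcguaaauauuggcg
miR-195a-5p: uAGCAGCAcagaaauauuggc
miR-497a-5p: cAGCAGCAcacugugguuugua
All carry the seed AGCAGCA, and the shared run goes on to base 9. Counted from base 1 at the 5′ end, miR-15a-5p and miR-15b-5p differed at 4 of 22 bases (A12C, G20A, U21C and G22A, with the miR-15a base first). The strands miR-16-5p and miR-195a-5p differed at 2 of the 21 bases they share in length (G10A and U11G, with the miR-16 base first). The strand miR-497a-5p differed from miR-15a-5p at 5 bases, the first of them U1C.

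The Mir16 genes make the same 5p strand from separate loci, and this bears on every count of theirs. Their hairpins are shown with the longest stretch they share in capitals, 23 bases in each.
Mir16-1: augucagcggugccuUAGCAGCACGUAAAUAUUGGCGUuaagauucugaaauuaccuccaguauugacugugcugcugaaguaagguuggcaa
Mir16-2: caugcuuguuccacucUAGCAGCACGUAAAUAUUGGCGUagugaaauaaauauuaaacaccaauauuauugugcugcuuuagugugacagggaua
The 22 bases of miR-16-5p lie whole inside that stretch. A read of this strand alone has no base that tells the loci apart, and reads mapped to several places were kept in a row of their own and given to no gene. That row held 23.3% of all reads in replicate 1 and 23.5% in replicate 2. Mir16-1 and Mir16-2 are therefore undercounted to an unknown extent, and their counts below are lower limits. Their CPM are lower limits only against the totals used here, which leave these reads out as well. Their 3p strands differ and are each held by 1 annotated hairpin.
miR-16-1-3p: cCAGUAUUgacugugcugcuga
miR-16-2-3p: aCCAAUAUuauugugcugcuuu
In these lines the capitals mark bases 2 to 8 of each 3p strand, and neither has the AGCAGCA seed. The other members shared at most 16 bases with any microRNA of another locus (Mir195a with Mir195b, a gene on chromosome 2). For Mir15a this was checked on its mature strands only, with 11 bases shared with Mir15b. The tables count whole hairpins, so 5p and 3p reads are not separated.

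The 6 genes lie in 3 loci (mm10, GENCODE M21). Mir15a (ENSMUSG00000093007.1; chr14:61632027-61632110) and Mir16-1 (ENSMUSG00000092995.1; chr14:61631880-61631972) are on the minus strand, 54 bases apart, within the long noncoding gene Dleu2. Mir15a is intronic, and 13 bases of the Mir16-1 hairpin fall in an exon of a Dleu2 transcript. Mir15b (ENSMUSG00000065580.1; chr3:69009772-69009835) and Mir16-2 (ENSMUSG00000065606.1; chr3:69009902-69009996) are on the plus strand, 66 bases apart, in an intron of Smc4, which encodes a condensin subunit. Mir497 (chr11:70234717-70234800) and Mir195a (ENSMUSG00000065411.2; chr11:70235042-70235135) are on the plus strand, 241 bases apart, and overlap no other annotated gene on their strand.

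Own-strand gene counts came to 4163656 of 10042860 reads in replicate 1 and 4789068 of 10996991 in replicate 2. All levels are CPM of these own-strand totals, with exact (Clopper-Pearson) 95% intervals that cover counting error within a library only. The reads carry no molecular identifiers, so copies of a molecule count as separate reads and the intervals can be too narrow even for that. Of the heart muscle markers, the 5 listed genes summed to 34745 and 69054 CPM, but unevenly. Most of this came from Mir208a (12836 and 17434 CPM) and Mir208b (21037 and 49967 CPM). Mir1a-1 had only 17 and 15 counts, and Mir133a-1 only 3 and 15. Since reads of several places are given to no gene, these low counts do not show that either microRNA was scarce. Liver Mir122 stood at 3078 and 175 CPM, and 5 epithelial genes summed to 5096 and 1332 CPM. Endothelial Mir126a stood at 53306 and 55503.5 CPM, and 2 smooth muscle genes summed to 69745 and 86022 CPM. The 3 red blood cell genes summed to 1160 and 1713 CPM and the 2 listed leukocyte genes to 454 and 332 CPM. Of the neural markers only Mir138-2 had counts, at 135 and 134 CPM. The libraries thus differed in markers of some other tissues, and the part of this in the family's values was not tested.

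Mir15a, which is known as a tumour suppressor gene together with Mir16-1, had the highest count of the family among reads given to a single gene. Its place above the Mir16 genes holds for these reads only. It had 14165 counts in replicate 1 and 12684 in replicate 2, which is 3402 CPM (95% interval 3346 to 3458) and 2649 CPM (2603 to 2695). The mean was 3025 ± 533 CPM (SD, n = 2), rank 56 of the 1974 genes with Mir497 added. Replicate 1 was the higher library. Its neighbour Mir16-1 had 7586 and 7212 counts, or 1822 CPM (1781 to 1863) and 1506 CPM (1471 to 1541), with a mean of 1664 ± 223 CPM. Mir16-1 was again higher in replicate 1, and both of its values lay below both of Mir15a.

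Mir15b, the Smc4 counterpart of Mir15a, had 5342 and 5641 counts. These are 1283 CPM (1249 to 1318) and 1178 CPM (1147 to 1209), with a mean of 1230 ± 74.3 CPM. Its neighbour Mir16-2 had 2000 and 1795 counts, or 480 CPM (460 to 502) and 375 CPM (358 to 393), with a mean of 428 ± 74.6 CPM. As counted, Mir16-1 exceeded Mir16-2 3.79-fold in replicate 1 and 4.02-fold in replicate 2, while their 5p strands are identical.

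Mir497 had 1911 and 2116 counts, or 459 CPM (439 to 480) and 442 CPM (423 to 461), with a mean of 450 ± 12.1 CPM. These were 99.7% and 99.95% of the reads of both strands at Mir497b, since Mir497b had 5 and 1 counts on its own strand. Mir195a, the member known from heart muscle cells after birth, was the lowest. It had 1140 and 1483 counts, or 274 CPM (258 to 290) and 310 CPM (294 to 326), with a mean of 292 ± 25.4 CPM and rank 155. It was the only member with more CPM in replicate 2 than in replicate 1.

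**Figure D1:**
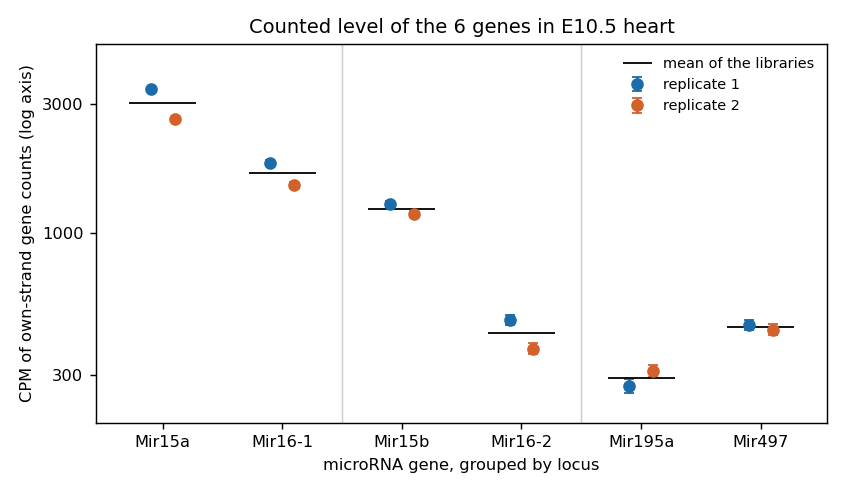
CPM of own-strand gene counts (log axis) of the 6 genes, grouped by locus, with 1 point per library, exact 95% intervals of counting error as bars and the mean of the libraries as a line. As counted, Mir15a is highest at 3402 and 2649 CPM and Mir195a lowest at 274 and 310 CPM, while Mir16-2 and Mir497 overlap.

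By mean CPM, with the Mir16 genes as counted, the order was Mir15a, Mir16-1, Mir15b, Mir497, Mir16-2 and Mir195a. The values of 4 of the 5 neighbouring pairs in this order did not overlap across the libraries. The exception was Mir497 and Mir16-2, where Mir16-2 was higher in replicate 1 and Mir497 in replicate 2, a log2 ratio of 0.09 ± 0.21 (SD, n = 2). Mir16-2 exceeded Mir195a 1.75-fold in replicate 1 but 1.21-fold in replicate 2. A small RNA molecule gives 1 read whatever the length of its hairpin, so CPM was the main scale. Per base of hairpin, Mir15b with 19.2 ± 1.16 CPM per base came before Mir16-1 with 17.9 ± 2.40, their values overlapped, and Mir15a led with 36.0 ± 6.34 and Mir195a closed with 3.10 ± 0.270. With 2 libraries the smallest p of a two-sided exact sign-flip test is 0.5, so the order was not tested.

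The 3 loci kept the same order in both libraries. The Mir15a-Mir16-1 locus had 5224 and 4154 CPM in replicates 1 and 2. The Mir15b-Mir16-2 locus had 1763 and 1553 CPM, and the Mir195a-Mir497 locus 733 and 752 CPM. As shares of the family's counts, the Mir15a-Mir16-1 locus held 67.7% (95% interval 67.2 to 68.2) and 64.3% (63.8 to 64.9). The Mir15b-Mir16-2 locus held 22.8% (22.4 to 23.3) and 24.0% (23.6 to 24.5), and the Mir195a-Mir497 locus 9.49% (9.17 to 9.82) and 11.6% (11.3 to 12.0). The Dleu2 locus thus held most of the counts, and the intervals of the libraries did not overlap for any of the loci, so the small shift toward the other loci in replicate 2 exceeded counting error. The shift had no replicate check, since it compares 1 library with 1 library.

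The log2 ratio of the Mir15a-Mir16-1 locus was 1.49 ± 0.10 to the Mir15b-Mir16-2 locus and 2.65 ± 0.26 to the Mir195a-Mir497 locus (SD, n = 2). The Mir15b-Mir16-2 locus exceeded the Mir195a-Mir497 locus by 1.16 ± 0.16. With the Mir16 genes left out, because of their shared strand, these log2 ratios were 1.29, 2.02 and 0.73. The order of the loci was the same, but the gap of the Mir15a locus to the Mir195a-Mir497 locus was 1.55-fold smaller on the linear scale. Without the reads opposite Mir497b, Mir195a alone lay 4.0 below the Mir15a-Mir16-1 locus and 2.51 below the Mir15b-Mir16-2 locus on the log2 scale. A table read on the listed strand only would therefore put this locus 2.55-fold lower.

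**Figure D2:**
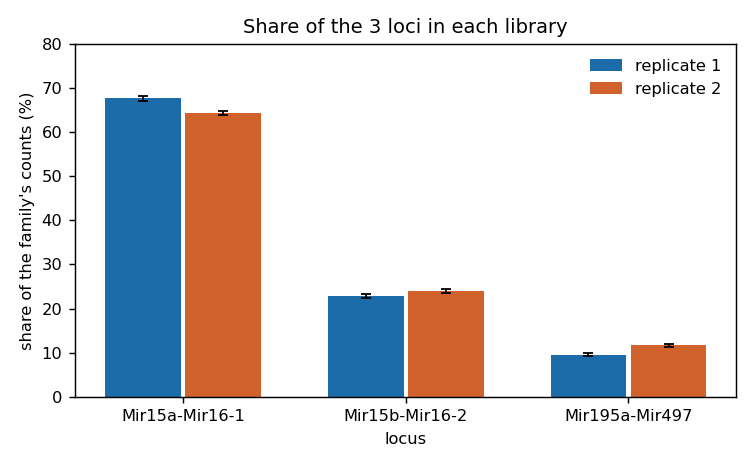
Share of the family's counts (%) held by each of the 3 loci in each library, with bars from 0 and exact 95% intervals of counting error. As counted, without reads of several places, the Mir15a-Mir16-1 locus holds 67.7% and 64.3%, the Mir15b-Mir16-2 locus 22.8% and 24.0% and the Mir195a-Mir497 locus 9.49% and 11.6%.

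Within a locus the balance of the partners differed from locus to locus. Mir15a held 65.1% of its locus in replicate 1 (64.5 to 65.8) and 63.8% in replicate 2 (63.1 to 64.4), so it exceeded Mir16-1 1.87-fold and 1.76-fold. Mir15b held 72.8% (71.7 to 73.8) and 75.9% (74.9 to 76.8) and exceeded Mir16-2 2.67-fold and 3.14-fold. Both Mir16 partners are lower limits, so these folds are upper limits as far as uncounted Mir16 reads go. Mir195a held less than its partner, 37.4% (35.6 to 39.1) and 41.2% (39.6 to 42.8), and Mir497 exceeded it 1.68-fold and 1.43-fold. Neither Mir195a nor Mir497 shares a stretch of 20 bases with an annotated microRNA of another locus. The rest of the genome was not searched.

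The family's counts, with the opposite-strand reads of Mir497 added, came to 0.772% (0.764 to 0.780) of the own-strand total in replicate 1 and 0.646% (0.639 to 0.653) in replicate 2, a mean of 0.709% ± 0.0892 (SD, n = 2). The 5 members counted on their own strand came to a mean of 0.664% ± 0.0880. Its seed is shared with 5 other annotated mouse microRNAs. Of these only Mir322, an X-linked gene neighbouring Mir503, had counts. The mature strands are shown for the seed they share or lack.
miR-322-5p: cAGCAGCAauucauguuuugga
miR-503-5p: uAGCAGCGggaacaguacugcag
The seed of miR-322-5p is that of the family, while that of miR-503-5p differs at its last base. Mir322 had 49444 and 62565 CPM, 6.40-fold and 9.69-fold the sum of the 6 family genes as counted. Of all counts of genes with this seed, the family held 13.5% (13.4 to 13.6) in replicate 1 and 9.36% (9.26 to 9.46) in replicate 2. Because the Mir16 genes are undercounted, these folds are upper limits and these shares lower limits in that respect, and the intervals do not cover it. Together, genes with the seed held 5.72% and 6.90% of own-strand counts. Mir503 had 2350 and 2678 CPM, between Mir15a and Mir16-1 by its mean. Mir195b, Mir6342, Mir6353 and Mir6419, the other genes with the seed, were at 0 in both libraries, where each could still have up to 0.721 CPM in replicate 1 and 0.626 CPM in replicate 2.

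**Figure D3:**
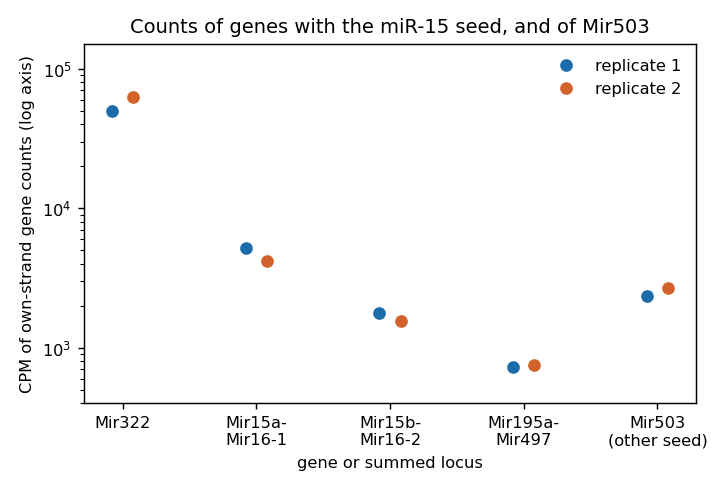
CPM of own-strand gene counts (log axis) of Mir322, of each family locus summed over its genes, and of Mir503, whose seed differs, with 1 point per library. Mir322 at 49444 and 62565 CPM lies above every family locus, of which the Mir15a-Mir16-1 locus is highest at 5224 and 4154 CPM.

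The libraries were then compared gene by gene with an exact two-sided binomial test given TMM-scaled library sizes, with Benjamini-Hochberg adjustment over all 425 genes that reached 10 counts in one library or both. This test sets the difference of these libraries against counting error and does not compare conditions. All 6 members passed the count minimum. Of them 4 passed the test, beside 61.6% of all tested genes, with 3 higher in replicate 2 (30.6% of tested genes) and 1 lower (31.1%). Mir195a had the largest log2 ratio of replicate 2 over replicate 1, 0.45 (95% interval 0.34 to 0.56; exact binomial adjusted p = 4.55e-15). Mir497 was higher at 0.22 (0.13 to 0.31; exact adjusted p = 3.34e-06) and Mir15b at 0.15 (0.10 to 0.21; exact adjusted p = 1.09e-07). Mir15a was lower at -0.09 (-0.12 to -0.05; exact adjusted p = 2.08e-06). Mir16-2 at -0.08 (-0.18 to 0.01) and Mir16-1 at -0.00037 (-0.05 to 0.05) did not pass, with exact adjusted p of 0.116 and 1.

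After TMM scaling the absolute log2 ratio of each member lay below 0.47, the median over the 425 tested genes. Mir195a, with 48.0% of tested genes below it, lay near that median, and the other members lay further below it. The coefficient of variation that edgeR estimated over the genes passing the count minimum was 37.2%. It was taken after TMM scaling and leaves out counting error, so it is not the same measure as the coefficients by CPM that follow. Which member varied most depended on the scaling. By CPM, which uses total counts, the coefficient of variation ran from 2.69% for Mir497 to 17.6% for Mir15a, whereas after TMM Mir15a differed 1.06-fold between the libraries, Mir497 1.16-fold and Mir195a 1.37-fold. The median log2 ratio of the 6 members was 0.08, beside -0.01 over all tested genes. The direction of several members turned with the scaling. With total counts in place of TMM all log2 ratios fell by 0.27, and 5 members passed (61.6% of tested genes), 1 higher (15.5%) and 4 lower (46.1%). Mir195a stayed higher at 0.18, Mir15b turned to -0.12 and Mir497 to -0.05, of which Mir497 did not pass. Mir15a stood at -0.36, Mir16-1 at -0.27 and Mir16-2 at -0.36, all passing. The median of the members was then -0.20 and that of all tested genes -0.28. Mir195a, of the 6, was the member above 0 and Mir15a the one below 0 that passed the test under both scalings.

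**Figure D4:**
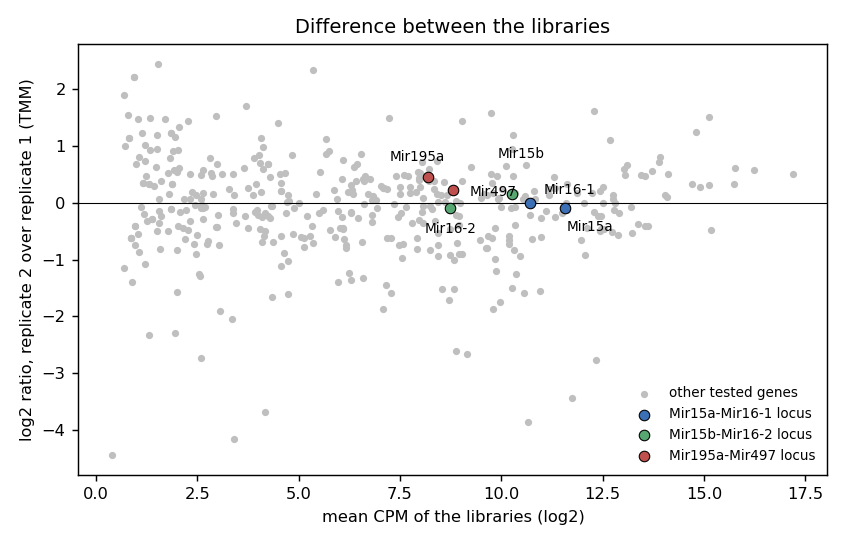
Log2 ratio of replicate 2 over replicate 1 after TMM scaling against the mean CPM of the libraries (log2), with grey points for the other tested genes and coloured points for the 6 family genes by locus. The family genes lie between -0.09 and 0.45, inside the spread of the other genes.

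By locus the log2 ratio of the libraries was -0.06 (-0.08 to -0.03) for Mir15a-Mir16-1, 0.09 (0.04 to 0.14) for Mir15b-Mir16-2 and 0.31 (0.24 to 0.38) for Mir195a-Mir497. These intervals did not overlap. With total counts the ratios were -0.33, -0.18 and 0.04, so the Mir15b-Mir16-2 locus turned from higher to lower and the Mir195a-Mir497 locus lay close to 0, while the order of the loci was the same. The partners of a locus differed from each other by 0.09, 0.23 and 0.23 on this scale, so 2 of the 3 loci had partners as far apart as neighbouring loci.

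The genes outside the family with the values most like a member's were found by the distance in mean log2 CPM and log2 ratio, over 2 libraries only. Nearest to Mir15a were Mir149 (3616 and 2727 CPM) and Mir140 (3389 and 2792 CPM). Nearest to Mir15b were Mir484 (1331 and 1245 CPM) and Mir302c (1460 and 1147 CPM). Mir6236 (281 and 307 CPM) and Mir27a (287 and 309 CPM) were nearest to Mir195a, and Mir186 (424 and 384 CPM) and Mir671 (513 and 433 CPM) to Mir497.

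Other microRNAs known to act on the cell cycle were set beside the family. The selection of 15 genes known to restrain it was drawn from the let-7, Mir34, Mir449 and Mir26 genes. It left out the tested let-7 genes Mirlet7a-2, Mirlet7f-2 and Mir98, at log2 ratios of 1.14, 0.69 and 1.45. Of the 15 genes 13 were tested, of which 8 were higher in replicate 2 (30.6% of all tested genes). Among the others 2 were lower (31.1%) and 3 did not pass, and the median log2 ratio of the tested 13 was 0.43. Total counts left 5 higher (15.5% of all tested genes) and 2 lower (46.1%), and a median of 0.15. The 2 lower genes were Mir34c at -0.07 and Mir449a at -0.59. Of 11 genes from clusters known to promote it, 10 were tested. They are a selection from Mir17-92, Mir106b-25 and Mir106a-363 that leaves out Mir18b, Mir20b, Mir19b-2 and Mir92-2. The remaining gene, Mir18a, is listed under the symbol Mir18 and was missed by its name. Its log2 ratio was -0.45 under TMM. All 10 were lower under TMM (31.1% of all tested genes), with a median of -0.37, and under total counts (46.1%), with a median of -0.64. Many of these genes share a cluster and are not independent, and the lists were chosen with such values known. Reads of several places are missing here too, so list genes with a near-identical copy can be undercounted. The family had members on both sides of 0 under TMM. Its median of 0.08 lay between those of the lists, but so did the median of all tested genes at -0.01. This position is therefore not particular to the family and says nothing about its role in the cell cycle.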

How the data were processed

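MicroRNA sequencing counts of 2 heart libraries were used. The read counts per gene were deposited by the authors without normalization, over both strands, on the gene's own strand and on the opposite strand, from each library's alignment to mm10 with GENCODE M4, per the README files deposited with them. For the aligner, its settings and the trimming, the method is not given in the sources used here. Reads in rows without a gene stayed out of all totals. In replicates 1 and 2, unmapped reads made up 26.3% and 25.5%, reads of several places 23.3% and 23.5%, and reads outside listed genes (own strand) 8.98% and 7.41%. Symbols and positions came from GENCODE M21 on the same assembly, which matched 1894 of 1973 identifiers by stable identifier. The M21 models also gave the position of Mir497.

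CPM used own-strand totals, also for Mir497. TMM factors and the dispersion (intercept only, 1 group) came from edgeR 4.0.16, size factors from DESeq2 1.42.0, and exact tests and intervals from scipy 1.17.1. A count of 0 was taken to allow 3 counts. A prior count of 0.5 was added in log2 ratios. Named genes are the members, genes with their seed with Mir503, the 2 nearest genes to each of Mir15a, Mir15b, Mir195a and Mir497, and listed genes of the cell cycle and marker lists. Members and lists were chosen with earlier results of these data known. Alternatives were other scalings, filters, prior counts and strand columns, and single libraries. Others left out Mir497, the Mir16 genes or all genes sharing 20 bases with an annotated microRNA of another locus. Of 1894 listed genes with a sequence, 929 share such a stretch.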

Additional observations from a re-analysis of the deposited data

Results flagged for a closer look

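Mir497b had 5 own-strand counts in replicate 1, above the 3 that a count of 0 allows. In replicate 2 Mir497b had 1. The main locus comparisons do not use these counts, and the alternative with counts over both strands adds them. The mature strand annotated there is miR-497b: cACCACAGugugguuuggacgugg, with bases 2 to 8 in capitals, which lacks the family's seed. On the opposite strand Mir195a had 1 and 0 counts, and Mir15a, Mir16-1, Mir15b and Mir16-2 had 0 in both libraries.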

How the results depend on the processing

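The order of the 3 loci held under every alternative tried, while the size of the gaps moved with the genes and the length scale used. None of the alternatives gave the reads of several places to a gene. With Mir16-1 and Mir16-2 left out, the log2 ratios of Mir15a-Mir16-1 to Mir15b-Mir16-2, of Mir15a-Mir16-1 to Mir195a-Mir497 and of Mir15b-Mir16-2 to Mir195a-Mir497 were 1.29, 2.02 and 0.73. With Mir497 left out the ratios to its locus were 4.0 and 2.51. Counts per base of hairpin, an alternative added after the data were seen, gave 1.18 for the first ratio and 1.48 for the third. These settings change which counts are summed or their weights. Leaving out each library in turn gave 1.42 to 1.57, 2.47 to 2.83 and 1.05 to 1.27 for the ratios, 0.646% to 0.772% for the family's share, and -3.28 to -2.68 for the log2 ratio of the family to the other genes with its seed. Without genes that share 20 bases with an annotated microRNA of another locus the family's share was 0.551%. It then rests on Mir15a, Mir15b, Mir195a and Mir497.

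Of 425 tested genes 262 differed between the libraries, 130 higher and 132 lower, and between 255 and 270 did under the other settings. With total counts as scaling 66 were higher and 196 lower. Total counts turned Mir15b to -0.12 and Mir497 to -0.055, and brought Mir16-1 at -0.27 and Mir16-2 at -0.36 past the threshold. Mir16-1, at -0.00037, moved to 0.0072 with DESeq2 size factors and to 0.026 with counts over both strands, and did not pass in either. No paired analysis was possible because the labels give 1 group. Depth limits Mir195a most, and uncounted reads of several places limit the Mir16 genes beyond what any interval shows.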

Other observations

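Mir497b is not the only listed gene whose reads lie on the other strand. At least 10 opposite-strand counts in both libraries were found at 16 listed genes, and 11 of them had more opposite-strand than own-strand counts in both libraries. Mir497b ranked 9 among all listed genes by opposite-strand CPM.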
